A study of Mus musculus with 14 samples.

Results

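Gene expression after deletion of Ctcf, the gene of the chromatin protein CTCF, from excitatory neurons was measured in mouse cerebral cortex at postnatal day 7, as the difference between 4 mutant (cKO) and 4 control arrays. These are the 8 of the 14 arrays of the series that are labelled cerebral cortex, and the other arrays did not enter the comparison. All 23332 probe sets of the table were fitted, and the 14996 that are annotated with exactly 1 gene symbol, covering 14860 genes, are described. The cKO animals are labelled CTCF; Nex-Cre (fl/fl; +/Cre) and the controls CTCF; Nex-Cre (fl/fl; +/+), so both groups carry floxed Ctcf alleles and only the mutants carry Cre. All are labelled male and C57BL/6, and each array is labelled a biological replicate. RNA was total RNA from frozen tissue, hybridised to Affymetrix exon arrays. Nex is another name of Neurod6, and Cre from that locus acts in excitatory neurons of the forebrain, so interneurons, glia, microglia and vessels keep Ctcf. No group carried Cre without floxed alleles, so deletion of Ctcf and presence of the Cre allele cannot be told apart. In bulk tissue, fewer cells of a type and less RNA per cell cannot be told apart either.

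CTCF recognises a long DNA motif through its zinc fingers and, with the ring-shaped cohesin complex, holds the ends of chromatin loops. These loops bring enhancers to some promoters and keep them from others. The clustered protocadherins, cell surface proteins of which each neuron expresses its own combination, are its best known targets in neurons, where CTCF binds near their promoters. In the first postnatal week cortical excitatory neurons already hold layer and projection identities, and their axons, dendrites and synapses are still being built.

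The arrays were not all what their labels say. Cortex cKO 2, cKO 3 and control 3 each matched 1 array labelled hippocampus at a Spearman correlation of 0.997 over all probe sets, against at most 0.99 for any other pair, and those hippocampus arrays carried cortical levels of layer genes. The cortex arrays themselves had cortical marker levels (Tbr1 9.30 to 9.50 on cKO and 9.48 to 9.64 on control arrays, Prox1 at most 7.20). The mean of the Y-linked genes Eif2s3y and Kdm5d was 3.61 and 3.65 on cKO 1 and cKO 4, against 7.91 or more on the other 6 cortex arrays, although all are labelled male. Each cortex array kept its label, and results are also given without cKO 1 and cKO 4. Array medians were between 6.57 and 6.77, and the 719 olfactory receptor probe sets, a guide to background in this tissue, had a median of 3.46. Levels are deposited log2 values, and arrays are listed in the order replicate 1 to 4.

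Ctcf itself fell. Its level was 7.79, 7.94, 7.74 and 7.78 on the cKO arrays, against 9.29, 9.23, 9.22 and 9.18 on the control arrays, and the groups did not overlap (difference -1.42, SE 0.071, limma adjusted p 0.000223). The cKO cortex retained 37.4% of the control level, and an exact two-sided permutation test of this single gene gave p = 0.0286, the smallest that 4 against 4 arrays allow. Which exons the floxed alleles remove is not stated in the labels, and 1 value stands for the whole gene here. Neurod6, a basic helix-loop-helix factor of excitatory neurons whose locus carries Cre, stood at 8.73, 8.26, 7.78 and 8.73 on the cKO arrays, against 10.32, 10.30, 10.32 and 10.05 on the control arrays. Every cKO array was below every control array, with a mean of 27.3% of control, and the same exact permutation test again gave p = 0.0286 (limma adjusted p 0.00531). By their labels the mutants carry Cre at 1 allele of this locus and the controls at none. The Cre allele and deletion of Ctcf cannot be told apart in this fall. With cKO 1 and cKO 4 left out, the differences were -1.39 for Ctcf and -2.23 for Neurod6. Without the 3 arrays that match one labelled hippocampus, the adjusted p was 0.0865 for Ctcf and 0.127 for Neurod6.

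Many more genes fell than rose beside Ctcf. A probe set was called at a limma adjusted p under 0.05, adjusted over all probe sets, and a change of more than 1.2-fold, the thresholds that the series text names. The labels call the arrays biological replicates and name no animals, so p-values cover no more than the spread among these 8 arrays. By this rule 363 probe sets with 1 symbol changed (2.42% of those tested), of which 110 were higher (0.734%) and 253 lower in cKO (1.69%). Over all probe sets, named or not, 396 were called (1.7%), 125 higher (0.536%) and 271 lower (1.16%). The cKO and control arrays did not overlap at any of the 363, as was the case at 10.9% of all probe sets with 1 symbol. Called rises had a median of 0.65 (0.36 to 2.54) and called falls a median of -0.73 (-1.98 to -0.34). More than 2-fold changes were 20 rises and 62 falls. The median difference over all genes was -0.02, and 43% of differences were positive. The count of calls moved with single arrays: leaving out cKO 1, 2, 3 or 4 gave 214, 182, 219 or 206 calls, and leaving out control 2, 3 or 4 gave 240, 182 or 209. Leaving out both cKO 1 and cKO 4 gave 48 (11 higher, 37 lower), and 46 of the 363 calls were among them. All 363 kept their sign, which was fixed in advance because their groups do not overlap. Without the 3 arrays that match one labelled hippocampus, which leaves cKO 1 and cKO 4 as the only mutants, 2 were called.

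**Figure D1:**
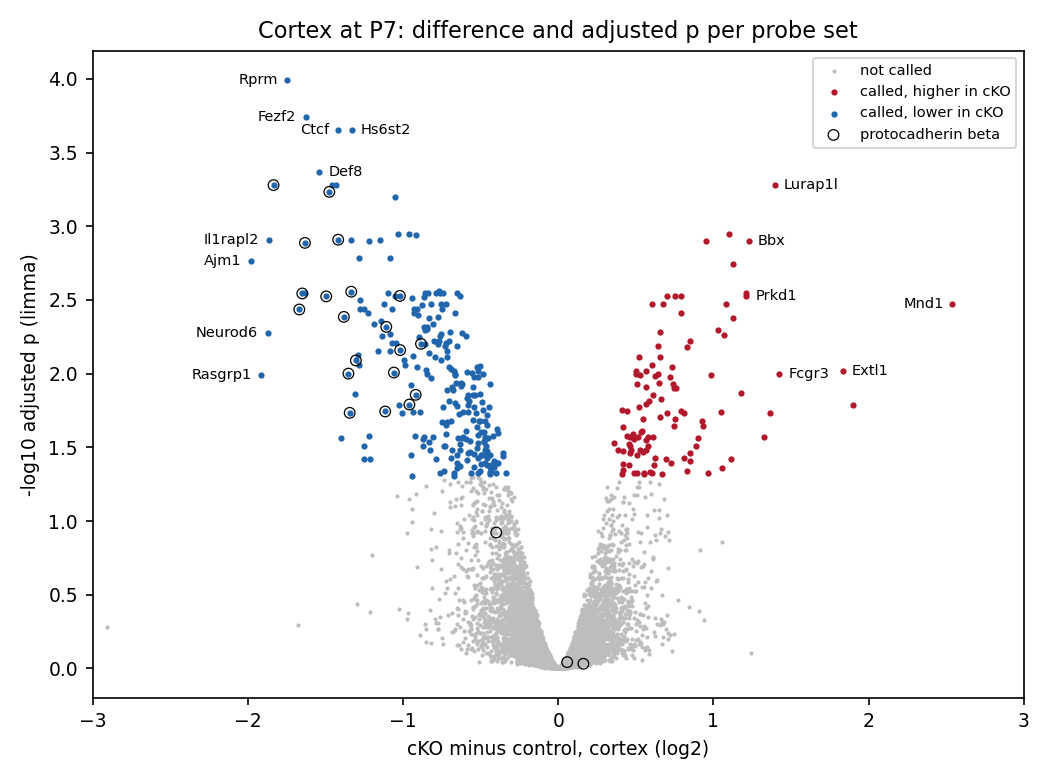
Difference in level, cKO minus control (log2, horizontal), against -log10 of the limma adjusted p (vertical) for the probe sets with 1 symbol in cortex. Red points are called and higher in cKO, blue points called and lower, grey points not called, and open circles mark protocadherin beta probe sets, of which 20 are called lower. Mnd1 stands farthest to the right at 2.54, and Rprm has the smallest adjusted p.

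The largest rise was in a meiosis gene. Mnd1, a partner of the strand exchange machinery of meiotic recombination, stood at 7.13, 7.36, 6.43 and 7.08 on the cKO arrays, against 4.97, 4.07, 4.62 and 4.19 on the control arrays (difference 2.54, SE 0.26, adjusted p 0.00336, 5.81-fold). Control arrays lay not far above the background guide, and no cKO array came near them. Extl1, a glycosyltransferase of the exostosin family that builds heparan sulfate, was at 8.56, 8.98, 9.20 and 8.73 on the cKO arrays, against 7.19, 6.60, 6.73 and 7.61 on the control arrays (difference 1.83, SE 0.24, adjusted p 0.00965). Lurap1l, a leucine-rich adaptor protein, had 7.39, 7.31, 7.43 and 7.59 on the cKO arrays, against 6.13, 5.90, 6.03 and 6.08 on the control arrays (difference 1.39, SE 0.087, adjusted p 0.000526). Both rises separated the groups by a full log2 unit or nearly so, and Lurap1l had the smallest adjusted p of any rise. Bbx, a DNA-binding protein with an HMG box, was at 8.01, 8.28, 8.12 and 8.18 on the cKO arrays, against 7.07, 6.88, 6.75 and 6.99 on the control arrays (difference 1.23, SE 0.096, adjusted p 0.00126). Prkd1, the kinase PKD1 that acts downstream of diacylglycerol, was at 7.88, 8.03, 7.63 and 8.02 on the cKO arrays, against 6.88, 6.57, 6.66 and 6.60 on the control arrays (difference 1.21, SE 0.12, adjusted p 0.00297). Without cKO 1 and cKO 4 the limma adjusted p was 0.071 for both Mnd1 and Extl1 and 0.0637 for Prkd1, past the threshold. It was 0.0238 for Lurap1l and 0.0295 for Bbx. Rin1, a Ras effector that activates Rab5, rose by 1.18, and Parp3, an ADP-ribosyltransferase of DNA repair, by 1.10 (adjusted p 0.0135 and 0.00113). Adamts8, a secreted metalloprotease, rose by 1.13, Mettl25 by 1.13, Polr3g, a subunit of RNA polymerase III, by 1.07, and Coch, a secreted protein best known from the inner ear, by 1.03. Further rises of more than 2-fold were those of Fcgr3, Gata3, Pqlc3, Mc5r, Gpld1, Dcdc2a, Mctp2, Grk4 and Defb5, between 1.05 and 1.90. Defb5, a defensin, was below the background guide on every control array (2.16, 3.16, 2.68 and 3.20) and at 4.53, 4.56, 5.30 and 4.40 on cKO arrays, so its fold is not well measured. Defb5 lost its call in 2 of the 8 fits with 1 array left out (adjusted p up to 0.0631), Gata3 in 3 (up to 0.0697), Pqlc3 in 6 (up to 0.0914), Rin1 in 2 (up to 0.056), Gpld1 in 7 (up to 0.119), Mctp2 in 7 (up to 0.137) and Grk4 in 6 (up to 0.0684).

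The largest fall was in Ajm1, which encodes an apical junction component. Its level was 6.74, 7.29, 7.47 and 7.31 on the cKO arrays, against 9.31, 9.08, 9.01 and 9.34 on the control arrays (difference -1.98, SE 0.17, adjusted p 0.00172, 3.95-fold). Rasgrp1, an exchange factor that loads Ras with GTP after calcium and diacylglycerol signals, was at 7.30, 8.21, 7.62 and 7.08 on the cKO arrays, against 9.61, 9.13, 9.32 and 9.82 on the control arrays (difference -1.91, SE 0.26, adjusted p 0.0102). The cKO arrays of both genes were spread over more than 0.7 log2 units and still lay below every control array. Without cKO 1 and cKO 4 the limma adjusted p was 0.0238 for Ajm1 and 0.0907 for Rasgrp1. Rprm, known as a p53-induced arrest protein and as a deep-layer gene of cortex, was at 8.02, 7.94, 8.01 and 7.98 on the cKO arrays, against 9.76, 9.64, 9.82 and 9.72 on the control arrays (difference -1.74, SE 0.066, adjusted p 0.000102). Its 4 cKO arrays differed among themselves by less than 0.1, and no gene had a smaller adjusted p. Def8, a gene of little known neuronal role, had 7.44, 7.69, 7.76 and 7.73 on the cKO arrays, against 9.14, 9.22, 9.21 and 9.21 on the control arrays (difference -1.54, SE 0.086, adjusted p 0.000428). Tshr, the receptor of thyroid-stimulating hormone, had 5.37, 5.54, 5.29 and 5.36 on the cKO arrays, against 6.99, 6.76, 6.80 and 6.74 on the control arrays (difference -1.43, SE 0.088, adjusted p 0.000526). Hbq1a, a theta-like globin, fell by 1.63 on the log2 scale and was at 3.39, 3.61, 3.74 and 4.0 on cKO arrays, near the background guide, against 5.31, 5.28, 5.09 and 5.57 on control arrays, so the size of its fall is not well measured. It was the 1 called gene of 16 measured globin and red cell genes, whose median difference was -0.01.

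**Figure D2:**
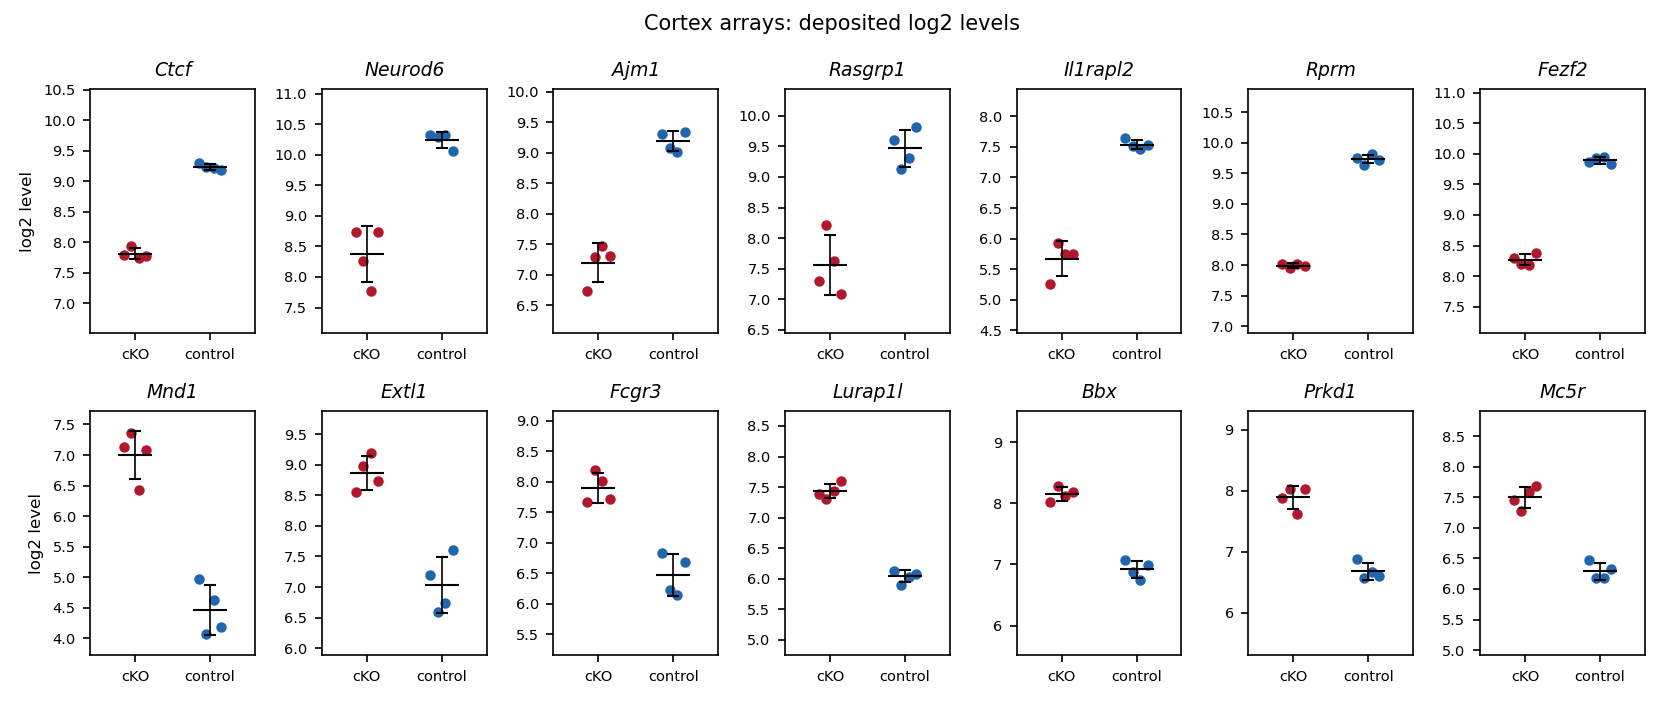
Deposited log2 level of 14 genes on each cortex array, with cKO (red) left of control (blue), the mean as a bar and the SD over 4 arrays as whiskers. Every panel spans 4 log2 units, the upper row holds genes that fell and the lower row genes that rose, and no panel shows overlap between cKO and control arrays.

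Some promoters of genes that fell hold the letters of a CTCF core. The search used RefSeq promoters of build GRCm38.p6, which had an entry for 11894 of the measured genes, and on both strands a spelling of the CTCF core: CCA, 2 letters of any kind, AG, 2 of any kind and GGC. A stricter spelling has G as the letter after AG, so that its matches are a subset of the first. Both were chosen among several after values had been seen. The first was found in 2.82% of all promoter-bearing genes of that table, in 3.1% of the measured ones, and in 18 of the 177 genes called lower (10.2%) and 1 of the 90 called higher (1.11%). The stricter spelling was found in 1.3% of measured genes, 12 of the genes called lower (6.78%) and the same 1 called higher. Median GC content was 59% for promoters of genes called lower, 60% for those called higher and 58.3% for all measured genes. A match here is only a run of letters, and binding was not measured. The 4 shown are Def8, Pcp4 and Tnr, which fell, and Dazl, the 1 gene called higher that holds the letters, with the match in capitals. On the strand shown the first letter of the match lies at -33, -17, -65 and -54 from the start site in this order.
Def8 chr8:123443009-123443308 (+): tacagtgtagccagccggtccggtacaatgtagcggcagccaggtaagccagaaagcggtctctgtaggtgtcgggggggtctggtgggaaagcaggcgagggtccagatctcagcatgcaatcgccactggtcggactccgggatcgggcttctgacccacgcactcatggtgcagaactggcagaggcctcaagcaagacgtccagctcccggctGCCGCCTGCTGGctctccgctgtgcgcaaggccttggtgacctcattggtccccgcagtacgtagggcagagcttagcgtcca
Pcp4 chr16:96467356-96467655 (+): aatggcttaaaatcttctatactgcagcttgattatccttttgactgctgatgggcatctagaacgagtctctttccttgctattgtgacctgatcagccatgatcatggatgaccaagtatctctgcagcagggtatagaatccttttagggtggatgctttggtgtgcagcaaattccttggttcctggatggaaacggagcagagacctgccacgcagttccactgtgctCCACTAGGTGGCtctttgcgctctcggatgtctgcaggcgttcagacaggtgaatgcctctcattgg
Tnr chr1:159523519-159523818 (+): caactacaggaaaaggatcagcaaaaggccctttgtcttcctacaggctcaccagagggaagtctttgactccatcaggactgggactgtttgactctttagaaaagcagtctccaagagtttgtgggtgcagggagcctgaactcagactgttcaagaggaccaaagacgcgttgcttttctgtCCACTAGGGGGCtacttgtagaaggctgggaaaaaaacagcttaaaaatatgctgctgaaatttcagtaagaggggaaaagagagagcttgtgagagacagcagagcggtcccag
Dazl chr17:50293571-50293870 (-): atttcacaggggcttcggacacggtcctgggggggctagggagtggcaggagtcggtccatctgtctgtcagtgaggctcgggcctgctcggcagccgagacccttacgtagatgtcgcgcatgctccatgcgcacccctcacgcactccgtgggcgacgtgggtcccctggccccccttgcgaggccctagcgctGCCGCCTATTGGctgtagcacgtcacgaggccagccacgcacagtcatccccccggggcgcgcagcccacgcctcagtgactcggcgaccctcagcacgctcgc
Pcp4, a small calmodulin-binding protein of deep-layer neurons, stood at 9.83, 10.07, 9.29 and 9.18 on the cKO arrays, against 11.04, 10.45, 10.85 and 11.03 on the control arrays (difference -1.25, SE 0.23, adjusted p 0.0378). Tnr, tenascin R of the perineuronal matrix, stood at 8.54, 8.96, 8.81 and 8.46 on the cKO arrays, against 9.43, 9.31, 9.27 and 9.34 on the control arrays (difference -0.65, SE 0.12, adjusted p 0.0401). Dazl, an RNA-binding protein of germ cells that was chosen for this after its values were seen, stood at 5.82, 6.14, 5.91 and 5.83 on the cKO arrays, against 5.24, 4.85, 4.79 and 5.41 on the control arrays (difference 0.85, SE 0.16, adjusted p 0.0392). Pcp4 spread over nearly 1 log2 unit among cKO arrays, and the groups did not overlap at any of the 3. Pcp4 lost its call in 6 of the 8 fits with 1 array left out (adjusted p up to 0.115), Tnr in 7 (up to 0.123) and Dazl in 7 (up to 0.122).

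The protocadherin beta genes fell nearly as one. Of 22 measured members 20 were called lower, against 1.7% of all genes, and the median difference was -1.32. Pcdhb19 fell most, with 6.09, 6.27, 6.07 and 6.33 on the cKO arrays, against 8.23, 7.81, 8.08 and 7.98 on the control arrays. Pcdhb22, Pcdhb12 and Pcdhb13 followed at -1.67, -1.65 and -1.63. After them came Pcdhb21, Pcdhb20, Pcdhb16 and Pcdhb7 at -1.50, -1.48, -1.42 and -1.38. The 2 members not called, chosen here after their values were seen, were Pcdhb6 (difference -0.40, adjusted p 0.12, groups not overlapping) and Pcdhb1, which was between 2.63 and 3.58 on cKO and 2.16 and 3.75 on control arrays, about the background guide. A second probe set of Pcdhb11 gave a difference of 0.06, against -0.92 for the brighter one. These genes are close copies of each other, and how far their probe sets share signal was not tested. Without cKO 1 and cKO 4 the median was -1.29 and 6 members were called.

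Deep-layer genes fell together with them. Of 37 measured genes of layers 5 and 6 and the subplate 13 were called lower (35.1%, against 1.7% of all genes) and none higher. The members of this and the other lists were chosen with earlier results of these data known, so such shares test no list. The share of all genes also covers genes near the background guide. The median was -0.42, and 24 had cKO arrays that all lay below all control arrays (7.63% of all genes). Fezf2, the factor that specifies corticospinal and other subcerebral neurons, was at 8.29, 8.20, 8.19 and 8.38 on the cKO arrays, against 9.87, 9.93, 9.95 and 9.83 on the control arrays (difference -1.63, SE 0.072, adjusted p 0.000181). Bcl11b, known as Ctip2 and acting downstream of Fezf2, was at 7.60, 7.63, 7.51 and 7.66 on the cKO arrays, against 8.38, 8.46, 8.35 and 8.27 on the control arrays (difference -0.76, SE 0.071, adjusted p 0.00286). Both factors were lower on every cKO array, by different amounts. Tshz2, a zinc finger factor, differed by -1.12, Ccn2, a secreted protein that marks the subplate, by -1.05, Tox by -0.85 and Crym, a thyroid hormone binding protein, by -0.84, all called. Tle4 and Zfpm2, regulators found in layer 6, fell by less (-0.48 and -0.46), as did Wnt7b (-0.49). Tle4 lost its call in 8 of the 8 fits with 1 array left out (adjusted p up to 0.102), Zfpm2 in 6 (up to 0.0859) and Wnt7b in 6 (up to 0.0947). Without cKO 1 and cKO 4 the list median was -0.46 with 3 calls.

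Some upper-layer genes fell as well. Of 31 measured, 4 were called lower (12.9%, against 1.7% of all genes) and 1 higher, with a median of -0.12. Of the list 9 had cKO arrays that all lay below all control arrays (7.63% of all genes). The difference between the 2 layer lists was not tested. Plxnd1, a semaphorin receptor, fell by 0.60, Lmo4, a LIM-only regulator, fell by 0.44, Otof fell by 0.58 and Kcnh5 fell by 1.0, while Unc5d, a netrin receptor of migrating upper-layer neurons, rose by 0.49. Cux2, an upper-layer homeobox gene, had 9.20, 9.07, 9.07 and 9.30 on the cKO arrays, against 9.52, 9.38, 9.34 and 9.36 on the control arrays, a separation that did not reach the threshold (difference -0.24, adjusted p 0.297). Among broad excitatory genes 2 of 24 were called lower (8.33%), Bcl11b and Neurod6, whose locus carries Cre in the mutants, with a median of -0.16. Lmo4 lost its call in 1 of the 8 fits with 1 array left out (adjusted p up to 0.0507), Otof in 4 (up to 0.0598), Kcnh5 in 3 (up to 0.0682) and Unc5d in 6 (up to 0.103).

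**Figure D3:**
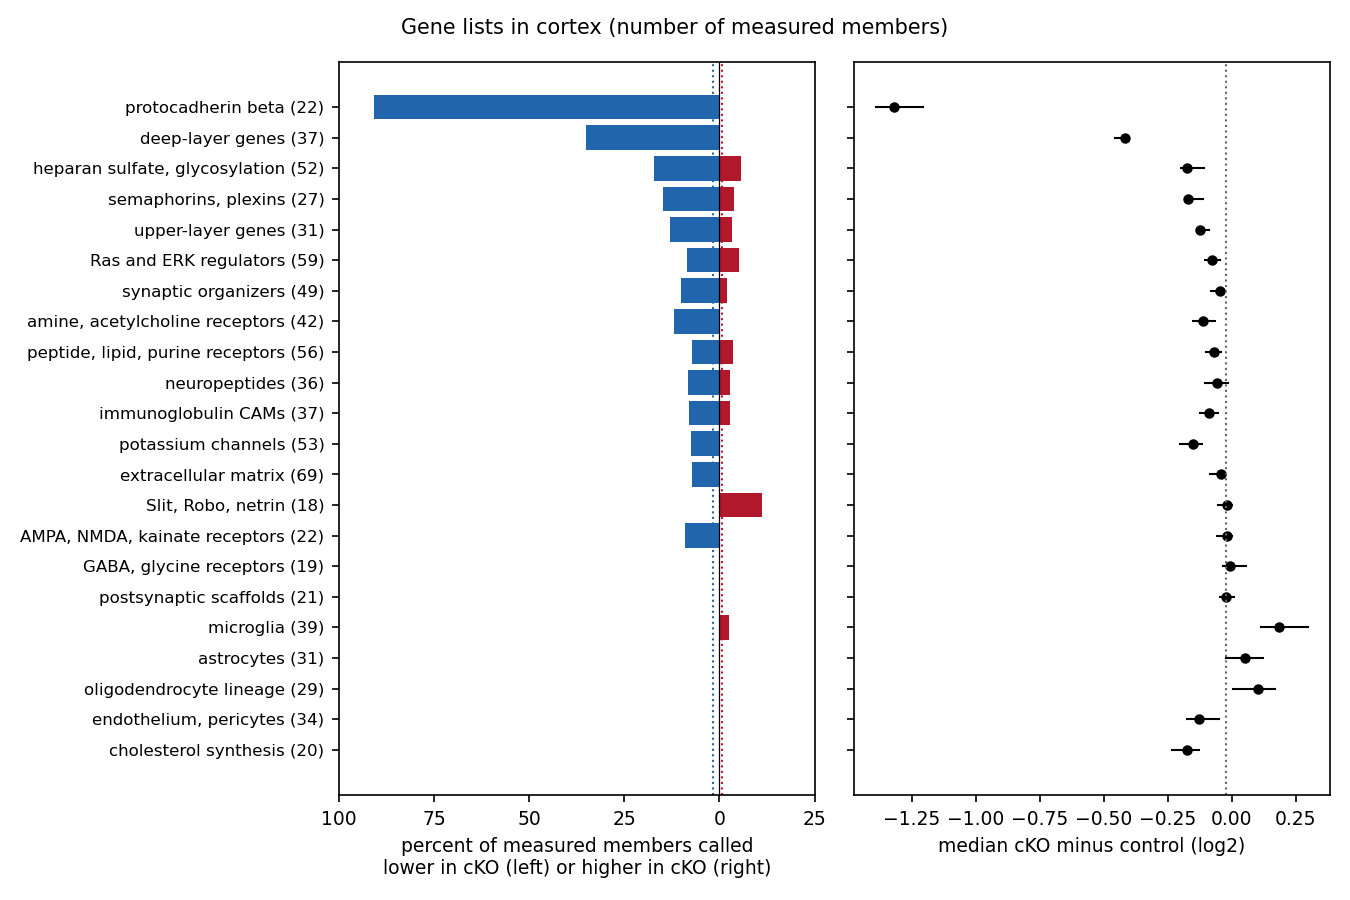
Left, percent of the measured members of each gene list that were called lower (blue, to the left) or higher (red, to the right) in cKO cortex, with dotted lines at the 1.7% and 0.74% of all genes called. Right, median difference, cKO minus control, of each list with the range over fits that leave out 1 array, and a dotted line at the median of all genes, -0.02. Protocadherin beta and deep-layer genes stand farthest to the left in both panels, and microglia farthest to the right in the right panel. Lists and members were chosen with earlier results of these data known.

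Several receptors for serotonin and other amines fell. Of 42 measured receptors and transporters of amines and acetylcholine, 5 fell (11.9%, against 1.7% of all genes) and none rose. The list median was -0.11. Htr2a, the excitatory serotonin receptor of layer 5 neurons, was at 7.06, 7.50, 7.49 and 7.27 on the cKO arrays, against 8.69, 8.45, 8.48 and 8.81 on the control arrays (difference -1.28, SE 0.13, adjusted p 0.00363). Htr7, which raises cyclic AMP, was at 6.99, 6.70, 6.59 and 7.10 on the cKO arrays, against 8.11, 8.03, 7.80 and 8.0 on the control arrays (difference -1.14, SE 0.13, adjusted p 0.00559). Htr4, also coupled to cyclic AMP, was at 5.92, 5.98, 5.78 and 6.01 on the cKO arrays, against 6.83, 6.65, 6.85 and 6.56 on the control arrays (difference -0.80, SE 0.094, adjusted p 0.00604). All 3 receptors were separated between groups by more than 0.5 log2 units. Slc6a4, the serotonin transporter, fell by 0.62 (limma adjusted p 0.0118). Slc18a2, the vesicular monoamine transporter, which is on the list of membrane transporters, was at 5.43, 5.49, 5.53 and 5.69 on the cKO arrays, against 6.88, 6.77, 6.81 and 6.56 on the control arrays (difference -1.22, SE 0.095, adjusted p 0.00126). Drd1, the dopamine D1 receptor, was at 6.83, 6.42, 6.03 and 6.08 on the cKO arrays, against 7.76, 7.65, 7.66 and 7.19 on the control arrays (difference -1.22, SE 0.2, adjusted p 0.0266). It is also a defining gene of striatum: 24 striatal genes had a median of -0.09, Drd1 was the only one called, Drd2 was at 6.58, 7.25, 6.60 and 6.11 on cKO and 6.72, 6.59, 6.57 and 6.39 on control arrays, and the part of striatal tissue in the fall of Drd1 was not tested. In the fit that leaves out cKO 1 and cKO 4, 1 of the 5 was called and their differences were -1.11, -1.34, -0.84, -0.55 and -1.34. Drd1 lost its call in 6 of the 8 fits with 1 array left out (adjusted p up to 0.0906) and Slc6a4 in 1 (up to 0.0524).

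Peptide signals changed both ways. Of 56 receptors of peptides, lipids and purines 4 fell (7.14%, against 1.7% of all genes) and 2 rose, with a median of -0.07. The called melanocortin receptors went opposite ways. Mc5r was at 7.46, 7.28, 7.58 and 7.68 on the cKO arrays, against 6.47, 6.18, 6.19 and 6.33 on the control arrays (difference 1.21, SE 0.11, adjusted p 0.00286), and Mc4r at 7.22, 7.01, 7.01 and 6.84 on the cKO arrays, against 8.07, 8.35, 8.44 and 7.97 on the control arrays (difference -1.19, SE 0.13, adjusted p 0.00464). Trhr, the receptor of thyrotropin-releasing hormone, was at 5.15, 5.23, 5.22 and 5.53 on the cKO arrays, against 6.48, 6.41, 6.14 and 6.75 on the control arrays (difference -1.16, SE 0.14, adjusted p 0.00705). Its peptide Trh fell as well (difference -0.61, adjusted p 0.0271). Avpr1a, the vasopressin receptor, fell by 1.21, and Hcrtr2, an orexin receptor, fell by 0.92, while Tacr1, the substance P receptor, rose by 0.83. Among 36 neuropeptide genes 3 fell (8.33%) and 1 rose. Adcyap1, which encodes PACAP, was at 8.67, 9.03, 8.83 and 8.91 on the cKO arrays, against 8.21, 7.73, 7.74 and 7.81 on the control arrays (difference 0.99, SE 0.13, adjusted p 0.0102). Nts, neurotensin, was at 6.13, 6.02, 5.12 and 5.85 on the cKO arrays, against 7.50, 7.25, 7.05 and 6.90 on the control arrays (difference -1.40, SE 0.23, adjusted p 0.0273). The groups were well apart for both peptides, though cKO 3 was lower in Nts than the other cKO arrays. Grp, gastrin-releasing peptide, fell by 0.84. The metabotropic glutamate receptor Grm8, which dampens release at presynaptic sites, was at 6.83, 6.81, 6.67 and 6.79 on the cKO arrays, against 8.41, 8.10, 8.11 and 8.30 on the control arrays (difference -1.46, SE 0.091, adjusted p 0.000526). Avpr1a lost its call in 6 of the 8 fits with 1 array left out (adjusted p up to 0.116), Hcrtr2 in 5 (up to 0.0908), Tacr1 in 7 (up to 0.136), Nts in 6 (up to 0.088), Grp in 7 (up to 0.0947) and Trh in 6 (up to 0.0953). Of this list 1 receptor and no peptide was called without cKO 1 and cKO 4.

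Enzymes that build and trim sugar chains changed in 12 of 52 cases, at a list median of -0.17. Lower were 9 (17.3% of the list, against 1.7% of all genes) and higher 3. Several of these enzymes act on heparan sulfate, the chain that holds growth factors at the cell surface. Hs6st2, which adds 6-O sulfate, was at 8.39, 8.53, 8.50 and 8.47 on the cKO arrays, against 9.86, 9.74, 9.80 and 9.81 on the control arrays (difference -1.33, SE 0.065, adjusted p 0.000223). Both extracellular sulfatases that remove 6-O sulfate fell too. Sulf2 was at 10.16, 10.23, 10.28 and 10.08 on the cKO arrays, against 10.88, 10.84, 10.88 and 10.81 on the control arrays (difference -0.66, SE 0.07, adjusted p 0.00386) and Sulf1 at 6.37, 6.24, 6.20 and 6.26 on the cKO arrays, against 7.04, 6.92, 6.92 and 6.79 on the control arrays (difference -0.65, SE 0.078, adjusted p 0.0065). These 3 genes of 6-O sulfation had tight groups that did not overlap. Ndst3, which starts sulfation of the chain, fell by 0.95, and Chst11, which sulfates chondroitin, fell by 0.52. Extl1, given above, and Gpc5, a glypican that carries the chains, rose by 1.83 and 0.76. Of enzymes that start mucin-type O-glycans, Galnt14 fell by 1.08 and Galnt9 fell by 0.93, while Galnt13 rose by 0.59. The sialyltransferase St6galnac5 fell by 0.71 and the mannosidase Man1a fell by 0.50. Chst11 lost its call in 7 of the 8 fits with 1 array left out (adjusted p up to 0.123), Gpc5 in 4 (up to 0.0791), Galnt13 in 3 (up to 0.0614) and Man1a in 8 (up to 0.143). When cKO 1 and cKO 4 were left out, 1 member was called lower and none higher, and the median was -0.19.

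Of 69 genes on the matrix list 5 fell (7.25%, against 1.7% of all genes) and none rose, at a median of -0.04. Adamts8, the secreted metalloprotease that rose by 1.13, is not on this list, so the count does not cover every secreted or matrix gene. Spock1, a secreted proteoglycan known as testican 1, was at 9.05, 9.16, 9.06 and 9.02 on the cKO arrays, against 10.36, 10.06, 10.15 and 10.32 on the control arrays (difference -1.15, SE 0.087, adjusted p 0.00123). It had the largest fall on the matrix list and tight groups. Col8a1 and Col6a3, collagen chains, fell (differences -0.74 and -0.44), and Adamts18, a secreted protease, fell by 0.62. Meningeal and fibroblast genes, which share collagens, had 22 positive differences of 29 (43% of all genes) and a median of 0.12. Of these Aldh1a2, which makes retinoic acid in the meninges, rose by 0.50 (adjusted p 0.00999). Col8a1 lost its call in 4 of the 8 fits with 1 array left out (adjusted p up to 0.0666), Col6a3 in 8 (up to 0.143) and Adamts18 in 2 (up to 0.0556).

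**Figure D4:**
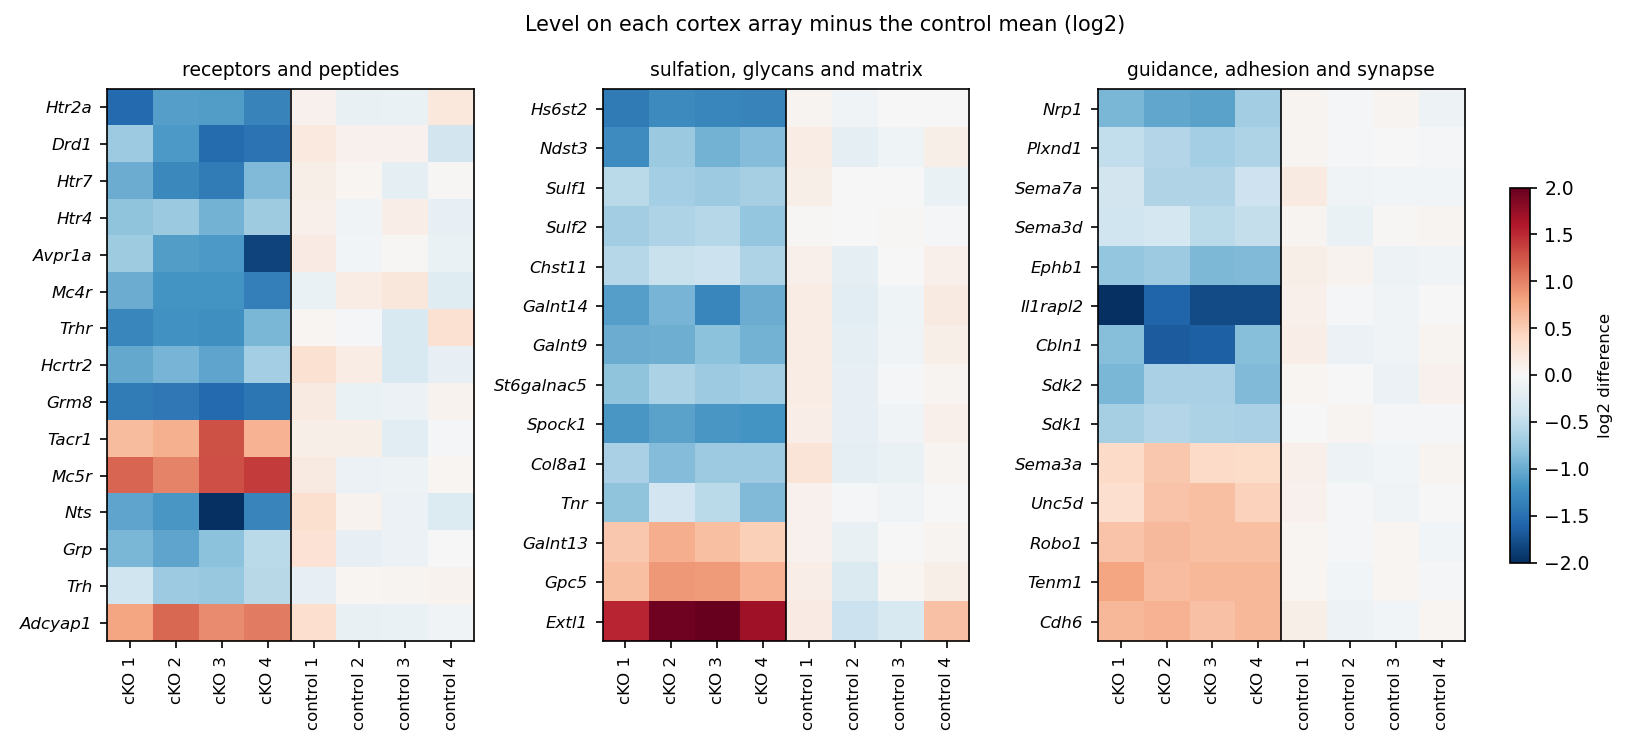
Level on each cortex array minus the mean of the 4 control arrays (log2, colour scale from -2 in blue to 2 in red, with values past either end at the end colour) for called genes of 3 themes, with the 4 cKO arrays left of the line and the 4 control arrays right of it. All 4 cKO arrays share the direction of each gene, and the receptors, sulfation enzymes and guidance genes hold both falls and rises.

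A minority of axon guidance genes were called, in both directions. Of 27 semaphorins, plexins and neuropilins 4 fell (14.8%, against 1.7% of all genes) and 1 rose, with a median of -0.17. Nrp1, the neuropilin that binds class 3 semaphorins, was at 8.36, 8.22, 8.19 and 8.57 on the cKO arrays, against 9.32, 9.25, 9.33 and 9.17 on the control arrays (difference -0.93, SE 0.098, adjusted p 0.0039). Plxnd1 was at 9.01, 8.91, 8.82 and 8.88 on the cKO arrays, against 9.56, 9.48, 9.50 and 9.47 on the control arrays (difference -0.60, SE 0.069, adjusted p 0.00559). Plexin D1 and neuropilin 1 can act together as a receptor for Sema3e, and each was lower on every cKO array. Of ligands, Sema7a and Sema3d fell (differences -0.50 and -0.44), and Sema3a rose by 0.42. Of 18 Slit, Robo and netrin pathway genes 2 rose (11.1%, against 0.74% of all genes) and none fell. Their differences were 8 positive and 10 negative, with a median of -0.02. Robo1, a Slit receptor, was at 10.32, 10.40, 10.36 and 10.35 on the cKO arrays, against 9.80, 9.72, 9.79 and 9.70 on the control arrays (difference 0.60, SE 0.061, adjusted p 0.00336), with little spread within either group. Unc5d, named above, was the other. Ephb1, a receptor of B-type ephrins, was the only called gene of 19 in its family, at 8.17, 8.22, 8.05 and 8.06 on the cKO arrays, against 9.06, 9.01, 8.83 and 8.87 on the control arrays (difference -0.82, SE 0.082, adjusted p 0.00336). Sema7a lost its call in 8 of the 8 fits with 1 array left out (adjusted p up to 0.134), Sema3d in 7 (up to 0.12), Sema3a in 7 (up to 0.137) and Unc5d in 6 (up to 0.103).

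Adhesion proteins of synapses fell more often than they rose. Of 49 synaptic organizers 5 fell (10.2%, against 1.7% of all genes) and 1 rose, at a median of -0.05. Il1rapl2, an organizer of the interleukin 1 receptor family on the X chromosome, was at 5.26, 5.93, 5.75 and 5.74 on the cKO arrays, against 7.64, 7.51, 7.46 and 7.53 on the control arrays (difference -1.87, SE 0.14, adjusted p 0.00123). Tenm1, a teneurin also on the X chromosome, was at 10.15, 9.98, 10.03 and 10.03 on the cKO arrays, against 9.41, 9.31, 9.41 and 9.35 on the control arrays (difference 0.68, SE 0.068, adjusted p 0.00336). The cKO arrays with and without Y-linked signal lay on the same side of the controls for both, as at every called probe set with 1 symbol. Cbln1, a secreted linker of neurexin and glutamate receptors, was at 7.83, 7.01, 7.04 and 7.83 on the cKO arrays, against 8.81, 8.57, 8.61 and 8.73 on the control arrays (difference -1.25, SE 0.21, adjusted p 0.031). Its difference was -1.65 without cKO 1 and cKO 4, which were the higher pair. Nxph3, a ligand of alpha-neurexins, fell by 0.86, Flrt2, a ligand of Unc5 and latrophilin, fell by 0.55, and Lrrtm2, a neurexin partner, fell by 0.42. Of 37 immunoglobulin and contactin genes, Sdk2, Cntnap4 and Sdk1 fell (8.11%, differences -0.77, -0.71 and -0.63), and Negr1 rose by 0.44. The sidekicks Sdk1 and Sdk2 join like cells in synaptic layers of retina. Of 24 cadherins outside the protocadherin clusters, Cdh22 and the calsyntenin Clstn2 fell (8.33%, differences -0.65 and -0.40) and Cdh6 rose by 0.66. Cbln1 lost its call in 6 of the 8 fits with 1 array left out (adjusted p up to 0.0953), Flrt2 in 2 (up to 0.0522), Lrrtm2 in 8 (up to 0.138), Negr1 in 8 (up to 0.0953), Cdh22 in 7 (up to 0.135) and Clstn2 in 8 (up to 0.13).

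Some genes on the lists of potassium and of sodium, calcium and TRP channels fell, and none on these lists was called higher. Of 53 potassium channel genes 4 fell (7.55%, against 1.7% of all genes), with a median of -0.15. Negative differences were 40, while 43% of the differences of all genes were positive. Kcnh1, which encodes an ether-a-go-go channel, was at 7.50, 7.85, 7.72 and 7.65 on the cKO arrays, against 9.15, 8.86, 8.94 and 9.12 on the control arrays (difference -1.33, SE 0.1, adjusted p 0.00124). Its relative Kcnh5 was at 7.90, 8.36, 8.23 and 7.97 on the cKO arrays, against 9.33, 8.87, 8.94 and 9.34 on the control arrays (difference -1.0, SE 0.15, adjusted p 0.0184). Kcnf1, a subunit that modifies other voltage-gated potassium channels, fell by 0.95, and Kcnmb4, the neuronal beta subunit of BK channels, fell by 0.63. Of 43 sodium, calcium and TRP channel genes, Trpv2, Scn1a and Trpm3 fell (6.98%, differences -0.87, -0.54 and -0.34). Of 22 ionotropic glutamate receptor genes, Grik4, a kainate receptor, fell by 0.75 and Neto2, an auxiliary kainate receptor subunit, fell by 0.67. No call was made by limma among 19 GABA and glycine receptors (median -0.01) or 21 postsynaptic scaffolds (median -0.02), of which 2 and 5 had an unadjusted p under 0.05 (12.8% of all genes). Among 42 vesicle genes only Slc17a8, the glutamate transporter VGLUT3, fell (2.38%, difference -0.81). Kcnh5 lost its call in 3 of the 8 fits with 1 array left out (adjusted p up to 0.0682), Kcnf1 in 7 (up to 0.115), Scn1a in 7 (up to 0.115), Trpm3 in 8 (up to 0.157), Neto2 in 8 (up to 0.149) and Slc17a8 in 7 (up to 0.0875).

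Regulators of Ras and ERK changed on both sides of the switch. Of 59 measured 5 fell (8.47%, against 1.7% of all genes) and 3 rose, with a median of -0.08. Beside Rasgrp1, the exchange factor Rapgef1 fell by 0.47. Spry2, Spred3 and Dusp6, inhibitors that ERK signalling itself induces, fell (differences -0.59, -0.58 and -0.55). Etv5, a transcription factor induced by ERK, was at 7.13, 7.41, 7.26 and 7.25 on the cKO arrays, against 8.44, 8.04, 8.07 and 8.47 on the control arrays (difference -0.99, SE 0.12, adjusted p 0.00811). Rps6ka3, the X-linked kinase RSK2 downstream of ERK, was at 9.98, 10.17, 9.98 and 9.96 on the cKO arrays, against 9.31, 9.25, 9.22 and 9.13 on the control arrays (difference 0.79, SE 0.077, adjusted p 0.00299). Rasa1, which switches Ras off, rose by 0.59, and Rin1 rose as given above. Prkd1 was the only called rise on a list of 31 kinases, which holds protein kinases C and D, calcium-regulated kinases and others. Of this list 3 fell (9.68%). Plcb4, a phospholipase that makes diacylglycerol, rose by 0.75, and the adenylyl cyclase Adcy7 fell by 0.51. Rapgef1 lost its call in 7 of the 8 fits with 1 array left out (adjusted p up to 0.118), Spry2 in 7 (up to 0.0845), Spred3 in 4 (up to 0.062), Dusp6 in 6 (up to 0.0755), Rasa1 in 7 (up to 0.14) and Plcb4 in 1 (up to 0.0507).

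Secreted growth signals were called in small numbers. Of 83 FGF, Wnt, BMP and Notch genes, Fgf13, an intracellular FGF homologue that binds sodium channels and microtubules, was at 9.53, 9.55, 9.22 and 9.42 on the cKO arrays, against 10.34, 10.07, 10.27 and 10.22 on the control arrays (difference -0.79, SE 0.099, adjusted p 0.00771). Bmp3 and Wnt7b fell (differences -0.54 and -0.49), and Sfrp4, a Wnt inhibitor, rose by 0.89. Of 37 neurotrophic genes, Gfra2, the neurturin receptor, and Sorcs3, a sortilin relative, fell (differences -0.48 and -0.59), and Cntfr, the CNTF receptor, rose by 0.46. Calls made up 4.82% of the first list and 8.11% of the second, against 2.42% of all probe sets with 1 symbol. Islr2, a membrane protein also known as Linx that is needed by cortical axons, was at 9.48, 9.07, 9.07 and 9.46 on the cKO arrays, against 10.50, 10.63, 10.54 and 10.31 on the control arrays (difference -1.23, SE 0.13, adjusted p 0.00386). It was the larger of 2 falls among 42 genes of young neurons, the other being the RNA-binding protein Elavl4 (-0.58). Sfrp4 lost its call in 7 of the 8 fits with 1 array left out (adjusted p up to 0.104), Gfra2 in 7 (up to 0.0882), Sorcs3 in 7 (up to 0.121), Cntfr in 8 (up to 0.0953) and Elavl4 in 4 (up to 0.0727).

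Transcription factors outside the homeobox and helix-loop-helix families were called in both directions, with 8 of 125 lower (6.4%, against 1.7% of all genes), 2 higher and a median of -0.06. The falls were those of Fezf2, Bcl11b, Tshz2, Tox, Zfpm2, Etv5, Klf5 and Ets2, and the rises those of Bbx and Plagl1. Of 75 homeobox and helix-loop-helix factors, Neurod6 and the clock relative Npas2 fell (2.67%). Npas2 was at 8.21, 8.08, 8.02 and 8.13 on the cKO arrays, against 8.91, 8.88, 8.75 and 8.80 on the control arrays (difference -0.72, SE 0.073, adjusted p 0.00336). Lhx9, a LIM homeobox gene that is strong in thalamus, was at 5.62, 5.83, 5.89 and 5.51 on the cKO arrays, against 4.87, 4.95, 4.85 and 4.78 on the control arrays (difference 0.85, SE 0.1, adjusted p 0.00604). It was the 1 called gene of 14 thalamic genes, of which 7, Lhx9 included, had positive and 7 negative differences. In the larger list Klf5 and Ets2 fell (differences -0.53 and -0.46), and Plagl1, an imprinted zinc finger gene, rose by 0.93. Gata3, which rose by 1.36, was at 6.48, 6.76, 7.25 and 6.55 on the cKO arrays, against 4.95, 5.51, 5.47 and 5.65 on the control arrays. Among 40 genes of CTCF, cohesin and chromosome architecture Stag1, a cohesin subunit, was the only call beside Ctcf, at 9.19, 9.12, 8.94 and 9.04 on the cKO arrays, against 8.59, 8.69, 8.58 and 8.40 on the control arrays (difference 0.50, SE 0.09, adjusted p 0.0354). Of 67 chromatin modifiers Smarca1, an ISWI remodeller on the X chromosome, rose by 0.57. Of 39 repair and meiosis genes, Msh3 rose by 0.49 with Mnd1, and Rad51d fell by 0.86. Of 40 p53 targets and apoptosis genes 3 fell (7.5%) and 1 rose, at a median of -0.06. Cdkn1a, the cell cycle inhibitor p21, was at 8.05, 8.14, 8.12 and 8.0 on the cKO arrays, against 7.53, 7.59, 7.60 and 7.53 on the control arrays (difference 0.52, SE 0.065, adjusted p 0.00771), while Bak1, a killer protein of mitochondria, fell by 0.88. Rprm, given above, and Plk3, a stress-induced polo-like kinase, were the other falls (differences -1.74 and -0.44). Ets2 lost its call in 8 of the 8 fits with 1 array left out (adjusted p up to 0.123), Plagl1 in 4 (up to 0.0799), Gata3 in 3 (up to 0.0697), Stag1 in 8 (up to 0.122), Smarca1 in 3 (up to 0.0542), Msh3 in 7 (up to 0.148) and Plk3 in 8 (up to 0.153).

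At most 1 gene was called in each list of markers of interneurons, glia, microglia and vessels, cells that keep Ctcf. Beside the 2.42% called of all probe sets with 1 symbol, lists of this size say little about a higher or lower share. Of 29 interneuron genes Kit, a receptor kinase, fell by 0.47, and the list median was -0.05. Kit lost its call in 8 of the 8 fits with 1 array left out (adjusted p up to 0.101). No astrocyte gene of 31 and no oligodendrocyte gene of 29 was called by limma, at medians of 0.05 and 0.10, and 1 and 1 had an unadjusted p under 0.05. None of 34 vessel genes was called by limma either, at a median of -0.13 and with 5 at an unadjusted p under 0.05. Microglial genes had 37 positive differences of 39 (43% of all genes), a median of 0.19 and 1 call. That call was Fcgr3, a receptor for the constant part of IgG on myeloid cells, at 7.67, 8.18, 8.01 and 7.72 on the cKO arrays, against 6.84, 6.23, 6.15 and 6.68 on the control arrays (difference 1.42, SE 0.19, adjusted p 0.01). The mean of the microglial list was between 6.33 and 6.68 on cKO arrays and between 6.04 and 6.52 on control arrays, which overlap. The defining markers Csf1r, Cx3cr1 and Aif1 differed by 0.43, 0.30 and 0.12 and were not called (adjusted p 0.568, 0.789 and 0.898). Within each group the arrays with the higher list means (cKO 2 and 3, control 1 and 4) also had the higher Fcgr3, itself a list member. Between groups, the list mean was 6.52 on control 4 and 6.33 and 6.36 on cKO 1 and cKO 4. Fcgr3 was at 6.68 on control 4 and 7.67 and 7.72 on those cKO arrays. The part of microglial levels in the rise of Fcgr3 was not tested. Without cKO 1 and cKO 4 the list median was 0.33 and Fcgr3 differed by 1.62 (limma adjusted p 0.0656).

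Called genes were placed beside each other in 36 cases, of which 18 lie in the protocadherin beta cluster and 18 elsewhere. Neighbours are genes next to each other among the measured genes in the order of the RefSeq annotation, and the pairs named here were chosen after their values were seen. The order held 14833 genes, and how many called pairs would fall side by side by chance was not tested. Of the 18 pairs elsewhere 6 were both higher, 4 both lower and 8 opposite. The run Prkd1, G2e3 and Coch on chromosome 12 rose by 1.21, 0.81 and 1.03. On chromosome 13 Gpld1 and Dcdc2a rose by 1.11 and 1.08, and Lysmd3 and Polr3g by 0.93 and 1.07. Dcdc2a, a doublecortin relative, was at 7.17, 7.31, 7.22 and 7.28 on the cKO arrays, against 6.18, 6.45, 5.98 and 6.05 on the control arrays. Lypd6b and Lypd6, modulators of nicotinic receptors on chromosome 2, fell (differences -0.90 and -0.91), as did Mgat4c and Nts (-0.75 and -1.40) and Rad51d and Nle1 (-0.86 and -0.59). In opposite pairs, Pqlc3 rose by 1.33 beside Kcnf1 (-0.95), Galnt13 by 0.59 beside Rprm (-1.74), and Adamts8 by 1.13 beside Snx19 (-1.07). Chromosome 18, which holds the protocadherin cluster, had 9.19% of its genes called, and the next was chromosome 13 with 3.91%. G2e3 lost its call in 6 of the 8 fits with 1 array left out (adjusted p up to 0.0711), Gpld1 in 7 (up to 0.119), Lysmd3 in 5 (up to 0.0852), Mgat4c in 5 (up to 0.0816), Nts in 6 (up to 0.088), Nle1 in 3 (up to 0.062), Pqlc3 in 6 (up to 0.0914), Kcnf1 in 7 (up to 0.115) and Galnt13 in 3 (up to 0.0614).

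Most cortical changes had the same sign on hippocampal arrays that the fit did not use. Of the arrays labelled hippocampus, 1 cKO and 2 control arrays matched no cortex array and carried hippocampal markers, and with these numbers there is no test. Of the 110 genes higher in cortex, 102 were higher there (59.9% of all genes were), and of 252 genes lower in cortex 222 were lower (40.1% of all genes were). The median differences were 0.45 and -0.34, against 0.65 and -0.73 in cortex. Mnd1 was at 7.42 on the hippocampal cKO array, against 4.70 and 5.28 on the controls. Prkd1 was at 8.73 against 7.05 and 7.19, and Mc5r at 8.27 against 6.89 and 6.93. Rasgrp1 was at 8.48 against 10.52 and 10.63, and Nts at 6.24 against 8.57 and 8.82. All of these but Mnd1 differed by more than in cortex. Others did not follow: Extl1 was at 7.30 against 7.20 and 6.97, Gata3 at 5.41 against 5.60 and 5.54, Trhr at 7.31 against 6.64 and 6.64 and Hbq1a at 6.22 against 5.68 and 5.50. Ctcf was at 8.31 against 8.95 and 9.16, so it differed by -0.75, less than in cortex. The cKO array and 1 of the 2 control arrays lacked Y-linked signal, and Ttr, a choroid plexus gene, was at 11.6 on the cKO array against 8.28 and 12.3 on the controls. The part of either in these differences was not tested.

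**Figure D5:**
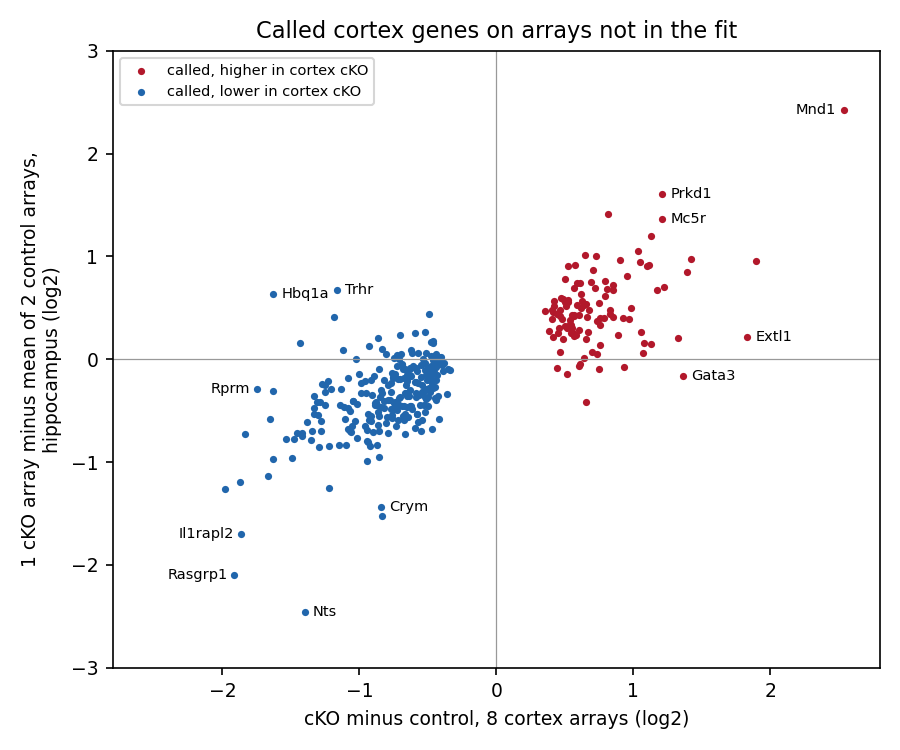
Difference of each called probe set in cortex, cKO minus control (log2, horizontal), against its difference on the hippocampal arrays that match no cortex array, 1 cKO array minus the mean of 2 control arrays (log2, vertical). Red points rose and blue points fell in cortex. Most points lie in the upper right and lower left, with Mnd1 at 2.54 and 2.43, and Hbq1a and Trhr among those that do not.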

How the data were processed

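Gene expression was measured on 4 cKO and 4 control Affymetrix arrays of mouse cerebral cortex at postnatal day 7, with no animal named for an array in the labels. The authors deposited 1 table of log2 values per probe set and array, made with Affymetrix Expression Console, RMA and Partek 6.4 on mm9, per the submitters' processing notes, which do not say how these were joined. Probe sets were named from GEO's platform annotation: 14996 have 1 gene symbol, 1019 several and 7317 none here. The deposited log2 values were used without further normalisation. The 8 cortex arrays were fitted with limma 3.58.1 (lmFit and eBayes, R 4.3.3), two-sided, with Benjamini-Hochberg adjustment over all 23332 probe sets. Of several probe sets for a gene, the brightest was used. The series text names an ANOVA, and its thresholds were kept.

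The text names Ctcf and Neurod6, the 20 largest rises and falls and the 10 smallest adjusted p. It also names called genes of the lists and cell type markers. Some called list members are not named, and some lists are not described. Lists and members were chosen with earlier results of these data known. Pcdhb6, Pcdhb1, Dazl, G2e3, Lysmd3, Mgat4c, Nle1, Lypd6b, Lypd6 and Snx19 were named after their values were seen.

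Replicate numbers recur in both groups, but same-numbered arrays did not deviate together (correlations 0.05, -0.06, 0.02 and -0.02), so they were not treated as pairs. In data simulated for this comparison over 23332 probe sets, limma recovered 12% of 1.3-fold and 46% of 1.5-fold changes. It recovered 76% of 2-fold and 86% of 3-fold changes, with 10 false calls. The simulated noise was independent between probe sets, so variation that many probe sets of an array share was not represented. The number of arrays limits the precision. Alternatives were other normalisations, filters, moderations, covariates and sets of arrays.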

Additional observations from a re-analysis of the deposited data

Results flagged for a closer look

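Among the 350 groups of 4 arrays behind the named genes, 8 held 1 array far from the other 3, past the 95% critical value of Dixon's test of the gap to the nearest array. Chance marks about 1 in 20 groups. On cKO arrays these were Tacr1 on cKO 3 (7.78, others 7.13 to 7.22), Sema3a on cKO 2 (9.59, others 9.41 to 9.44), Rps6ka3 on cKO 2 (10.17, others 9.96 to 9.98) and Klf5 on cKO 2 (7.72, others 7.93 to 7.95). On control arrays they were Neurod6 on control 4 (10.05, others 10.30 to 10.32), Trh on control 1 (7.06, others 7.26 to 7.28), Adcyap1 on control 1 (8.21, others 7.73 to 7.81) and Sema7a on control 1 (10.66, others 10.41 to 10.43). The cKO array of Tacr1, Sema3a, Rps6ka3 or Klf5 lay on the far side of the other cKO arrays from the controls in each case. The control array of Neurod6, Trh and Adcyap1 lay toward the cKO arrays, and that of Sema7a lay away from them.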

How the results depend on the processing

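All 363 calls with 1 symbol kept their sign under every alternative run (362 where 1 probe set stood for each symbol, which drops 1). The groups did not overlap at any of the 363, so a fit that leaves out arrays could not reverse a sign. The number of calls depended on the arrays. Over all probe sets, 396 were called (125 higher, 271 lower), between 200 and 332 with 1 array left out, 261 with Y-linked signal as a covariate and 56 without the 2 cKO arrays that lack it. Calls with 1 symbol numbered 363, between 182 and 287 with 1 array left out, 241 with that covariate and 48 without those arrays. Without the 3 arrays that match one labelled hippocampus, an alternative chosen after seeing the data, the counts were 3 and 2, and Ctcf differed by -1.45 (adjusted p 0.0865) and Neurod6 by -1.49 (adjusted p 0.127). With 1 probe set per symbol fitted alone, 584 were called, and the cause was not tested. With the replicate number as a block (replicate block), 16 and 15 were called, and Neurod6 differed by -1.87 (adjusted p 0.0773), the numbers being no pairing. Among the other alternatives the count over all probe sets was between 269 (a 1.5-fold minimum) and 551 (array weights), with 506 after quantile normalisation and 485 after centring. Reversed signs occurred in 5 uncalled genes. Without the 3 matching arrays Pcdhb1 was at -0.010, Aif1 at -0.17, Cx3cr1 at -0.045 and Drd2 at -0.22. With 1 array left out Pcdhb1 was between -0.12 (without control 1) and 0.40, and Drd2 between -0.14 (without cKO 2) and 0.24. Rorb was at -0.0085 without cKO 1 and cKO 4 and with the covariate. Of 164 called named genes, 84 kept their call with each array left out.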

Other observations

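Genes that neuronal activity induces had mostly negative differences. Of 42 measured, 35 had negative differences (median -0.17), while 43% of the differences of all genes were positive. In 12 the cKO arrays all lay below the control arrays (7.63% of all genes), and only Dusp6 and Plk3 were called lower (4.76%, against 1.7% of all genes). Genes of cholesterol synthesis had 19 negative differences of 20 and the same rounded median of -0.17. None was called by limma, and 8 had an unadjusted p under 0.05 (12.8% of all genes). Motor and cytoskeleton genes were called in 5 of 59 cases (8.47%, against 2.42% of all probe sets with 1 symbol). Kif13a, a kinesin, stood at 7.85, 7.78, 7.91 and 7.82 on the cKO arrays, against 8.52, 8.31, 8.23 and 8.33 on the control arrays (difference -0.51, SE 0.08, adjusted p 0.021). Dync1i1, a dynein intermediate chain, and Myo5b, a myosin that moves recycling endosomes, fell with Ajm1 (differences -0.36 and -0.47), and Diaph2, an X-linked formin, rose by 0.51. Kif13a lost its call in 6 of the 8 fits with 1 array left out (adjusted p up to 0.0848), Dync1i1 in 8 (up to 0.124), Myo5b in 8 (up to 0.126) and Diaph2 in 7 (up to 0.0945).

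Genes tied to the barrel map of somatosensory cortex changed both ways. Of 30 measured, 4 were lower (13.3%, against 1.7% of all genes) and 2 higher. Maoa, the X-linked enzyme that breaks down serotonin, stood at 9.21, 9.12, 9.05 and 9.04 on the cKO arrays, against 8.77, 8.47, 8.62 and 8.45 on the control arrays (difference 0.53, SE 0.092, adjusted p 0.0332). Btbd3, which orients dendrites toward active axons in barrel cortex, stood at 7.73, 7.99, 7.86 and 7.83 on the cKO arrays, against 8.55, 8.29, 8.31 and 8.55 on the control arrays (difference -0.57, SE 0.096, adjusted p 0.0287). Both groups of arrays were close together in these genes, with no overlap. Slc6a4, Lmo4, Tshz2 and Cdh6 were the other calls, and Rorb, which marks layer 4, differed by 0.11 (adjusted p 0.777). Maoa lost its call in 7 of the 8 fits with 1 array left out (adjusted p up to 0.112) and Btbd3 in 7 (up to 0.0996).

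Among membrane transporters Slc5a7, the choline transporter of cholinergic neurons, stood at 6.12, 6.28, 6.17 and 5.97 on the cKO arrays, against 5.51, 5.36, 5.37 and 5.67 on the control arrays (difference 0.66, SE 0.1, adjusted p 0.0198). Prkce, a protein kinase C, stood at 11.19, 11.15, 11.17 and 11.19 on the cKO arrays, against 11.52, 11.63, 11.60 and 11.49 on the control arrays (difference -0.39, SE 0.063, adjusted p 0.0251), and Nuak1, a kinase that promotes axon branching, fell by 0.45. Dnajb4, a heat shock cochaperone, rose by 0.56, and Mthfd2, a mitochondrial folate enzyme, fell by 0.63. Slc5a7 lost its call in 5 of the 8 fits with 1 array left out (adjusted p up to 0.0745), Prkce in 7 (up to 0.0969), Nuak1 in 5 (up to 0.0683), Dnajb4 in 4 (up to 0.0664) and Mthfd2 in 7 (up to 0.107).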
